A study of Mus musculus with 12 samples.

Results

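The genes described here are p53 targets and apoptosis regulators of the mouse lung: p53 itself, its inhibitors and target genes, and relatives of the apoptosis regulator Bcl2. The list named 33 genes by symbol, and the probe sets annotated to them were read on all 12 arrays. Of the 33, 31 had at least 1 probe set carrying a single gene symbol, among 18193 symbols on the array, and 30 passed a filter on low values and were tested among 10996 genes. Trp53 (p53) and Bax were not analysed here. Both probe sets of Tnfrsf10b, a death receptor, failed the filter: their values were 1.98 to 3.79 on the log2 scale, and array medians were 4.36 to 4.58.

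Lung RNA was hybridised to single-colour Affymetrix arrays, 1 array per mouse and 3 mice per group, from 4 groups aged 8 to 12 weeks. They were VILI-ventilated Gadd45a knockouts, VILI-ventilated wild types, SB knockouts and SB wild types. VILI is ventilator-induced lung injury, produced by ventilation for 4 hours at a tidal volume of 30 ml/kg and 65 breaths per minute, and SB is not spelled out in the labels, although the design text takes its wild type mice as the control. Titles give the knockout as GADD45-/-, the genotype field of the VILI samples writes GADD-/-, and the series title names GADD45a. Gadd45a is itself a p53 target that acts in growth arrest and DNA repair, and the design asks how its loss alters the uninjured and the ventilated lung. The sources used here give no strain, sex or hybridisation batch, and the description field, which calls every sample a control animal, was not used.

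p53 is a transcription factor that DNA damage and other stresses stabilise by freeing it from Mdm2 and Mdm4, which otherwise hold it in check. It switches on genes for growth arrest, DNA repair and cell death. Whether a cell dies through its mitochondria is then set by the balance within the Bcl2 family, where Bcl2, Bcl2l1 and Mcl1 protect the cell, Bax and Bak1 open the outer mitochondrial membrane, and proteins such as Bbc3 (Puma), Pmaip1 (Noxa) and Bcl2l11 (Bim) promote that opening.

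All values below are the deposited log2 expression values, so that a difference of 1 is a doubling, and a gene is represented by its probe set with the highest mean over the arrays. A gene was called when its adjusted p, from limma with Benjamini-Hochberg adjustment over all 10996 genes, was under 0.05. Precision is limited by how few arrays there are. Gadd45a was lower in knockout lungs on every array, at 5.87, 6.02 and 5.36 in knockout VILI against 9.75, 9.77 and 10.33 in wild type VILI, and at 4.87, 6.15 and 4.58 in knockout SB against 8.62, 9.51 and 8.69 in wild type SB. All 10 lung cell markers were tested, and their mean level lay between 12.5 and 13.3 on every array. Within groups, arrays correlated at 0.963 to 0.995 across genes. The third replicates of both knockout groups stood apart: the mean of 6 B cell markers was 10.62 in knockout VILI replicate 3 and 10.11 in knockout SB replicate 3, against 5.57 to 7.93 on the other 10 arrays. The mean of 6 cell division genes was 8.08 and 6.16 on those same arrays, against 4.88 to 5.84 on the others. Some of the values that rest on them are therefore also given without them.

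With VILI, averaged over the genotypes, 7 of the 30 members rose and none fell at the scale of the deposited values. With quantile normalization Phlda3 and Xpc also passed the threshold, both lower with VILI (adjusted p = 0.0432 and 0.0442), and Phlda3 did so without wild type SB replicate 1, Sesn2 without knockout VILI replicate 2, and Rev3l without knockout VILI replicate 3, without both knockout replicate 3 arrays or with array weights, each lower. The 7 were the stress kinases Plk2 and Plk3, the growth inhibitor Btg2, the nutrient and stress sensor Sesn1, the nuclease Aen, the membrane protein Perp and the survival protein Mcl1. These 7 make up 23.3% of the members, where 17.8% of all genes tested were called, 8.42% higher and 9.39% lower. At an unadjusted p under 0.05, 12 of 30 members and 33.9% of all genes passed. The median change of the 30 members was 0.09, beside -0.03 over all genes. By role, 4 of 10 growth arrest and signalling targets rose, 2 of 8 death targets, 1 of 4 Bcl2 relatives, 0 of 2 p53 inhibitors and 0 of 6 DNA repair genes. In bulk lung, a change in the number of cells of a type and a change in RNA per cell cannot be told apart.

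The promoters of 4 of these 7 genes are shown because each holds a cyclic AMP response element (CRE) or a p53 decamer, and that of Cdkn1a, the best known p53 target, is shown beside them. Each runs from 250 bases before a RefSeq transcription start to 50 bases after it (GRCm38.p6), 5′ to 3′ on the gene's strand. Capitals mark the CRE (TGACGTCA) in Plk2 and Btg2, and the p53 decamer, the repeated unit of a p53 response element, in Sesn1, Aen and Cdkn1a.
Plk2, chr13:110394794-110395093, plus strand: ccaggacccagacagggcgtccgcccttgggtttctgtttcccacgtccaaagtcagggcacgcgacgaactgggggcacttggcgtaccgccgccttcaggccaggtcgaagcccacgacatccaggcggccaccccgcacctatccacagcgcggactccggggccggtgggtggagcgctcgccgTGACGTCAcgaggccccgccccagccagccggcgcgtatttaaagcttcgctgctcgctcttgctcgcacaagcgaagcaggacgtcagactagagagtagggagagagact
Btg2, chr1:134079106-134079405, minus strand: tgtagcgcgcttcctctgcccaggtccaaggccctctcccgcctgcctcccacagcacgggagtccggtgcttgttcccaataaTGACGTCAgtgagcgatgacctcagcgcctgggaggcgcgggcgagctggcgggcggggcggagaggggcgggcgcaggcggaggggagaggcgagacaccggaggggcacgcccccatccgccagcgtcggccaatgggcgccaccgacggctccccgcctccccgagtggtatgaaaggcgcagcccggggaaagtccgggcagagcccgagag
Sesn1, chr10:41887189-41887488, plus strand: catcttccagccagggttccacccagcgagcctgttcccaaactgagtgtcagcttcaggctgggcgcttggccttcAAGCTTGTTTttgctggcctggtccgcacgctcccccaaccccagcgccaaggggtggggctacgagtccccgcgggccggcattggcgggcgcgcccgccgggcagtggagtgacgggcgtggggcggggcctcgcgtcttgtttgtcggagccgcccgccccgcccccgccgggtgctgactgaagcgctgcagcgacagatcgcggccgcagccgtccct
Aen, chr7:78895677-78895976, plus strand: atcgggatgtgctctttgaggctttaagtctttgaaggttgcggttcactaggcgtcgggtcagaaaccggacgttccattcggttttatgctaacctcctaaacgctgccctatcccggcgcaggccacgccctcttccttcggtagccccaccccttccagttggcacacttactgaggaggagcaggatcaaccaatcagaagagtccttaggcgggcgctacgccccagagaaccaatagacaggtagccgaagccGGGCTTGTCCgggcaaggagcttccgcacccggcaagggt
Cdkn1a, chr17:29090729-29091028, plus strand: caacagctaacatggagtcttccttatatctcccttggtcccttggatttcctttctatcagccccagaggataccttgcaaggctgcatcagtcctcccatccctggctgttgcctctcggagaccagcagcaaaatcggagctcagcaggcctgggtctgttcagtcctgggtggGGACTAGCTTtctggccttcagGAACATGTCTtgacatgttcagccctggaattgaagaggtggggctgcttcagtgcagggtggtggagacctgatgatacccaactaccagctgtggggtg

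The Plk2 CRE began 62 bases before the start and the Btg2 CRE 166 bases before it. The p53 decamer lay 173 bases before the second listed start of Sesn1 and began at base 11 counted from the first listed start of Aen. Cdkn1a had 2 such decamers, 73 and 51 bases before its first listed start. The promoters of the second listed start of Cdkn1a and the first of Sesn1 held 0, and that of the second start of Aen held 1. RefSeq promoters were at hand for 24 of the 33 members, with 34 starts, and for 6 of the 7 genes that rose, all but Perp. The p53 decamer was in 9 of the 24 members (37.5%) and in 9.55% of all genes with a promoter: beside Sesn1, Aen and Cdkn1a the 9 were Trp53, Mdm2, Ccng1, Bax, Ei24 and Polk, and of the 9 only Sesn1 and Aen were among the genes that rose. Counted by start rather than by gene, 10 of 34 member promoters held it, and 8.36% of all promoters. The CRE was in 2 of 24 members (8.33%), Plk2 and Btg2, and in 2.03% of all genes. Its shorter core TGACG, which every CRE contains, was in 10 of 24 (41.7%) and in 23.1% of all genes. The AP-1 motif TGANTCA was in 2 members, Mdm4 and Fas (8.33% against 8.97% of genes), and the serum response CArG box in 0 (against 1.81%). A loose pattern for the NF-kB core, with its middle bases left free, was in 7 (29.2% against 22.9%). Both strands were searched for each motif. A match is a description of these letters and does not show binding.

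Plk2 and Plk3 are polo-like kinases that damage, stress and serum induce. Plk2 was at 9.66, 9.97 and 9.74 in knockout VILI lungs and 9.87, 9.95 and 9.63 in wild type VILI lungs, against 7.94, 9.25 and 8.28 in knockout SB lungs and 8.68, 9.11 and 8.63 in wild type SB lungs. In both genotypes all 3 VILI arrays lay above all 3 SB arrays, and the 6 VILI values were close together while the SB values were spread. The averaged change was 1.16 (SE 0.19, adjusted p = 0.00351), a 2.23-fold increase.

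Plk3 was at 5.81, 6.32 and 5.77 in knockout VILI lungs and 6.02, 6.38 and 6.89 in wild type VILI lungs, against 4.47, 4.80 and 4.19 in knockout SB lungs and 4.95, 6.39 and 4.58 in wild type SB lungs. The knockout groups did not overlap, and in wild type 1 SB array, replicate 2, lay within the VILI range. Its averaged change was 1.30 (SE 0.29, adjusted p = 0.0126). The knockout SB values lie around the array medians, so the fold of 2.46 is approximate.

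Btg2, a p53 target that restrains proliferation by speeding mRNA decay, was at 10.91, 11.66 and 11.35 in knockout VILI lungs and 11.22, 11.12 and 10.99 in wild type VILI lungs, against 10.92, 11.01 and 10.55 in knockout SB lungs and 10.91, 10.76 and 10.42 in wild type SB lungs. The wild type groups did not overlap and the knockout groups did, through knockout VILI replicate 1. The averaged change was 0.45 (SE 0.14, adjusted p = 0.0432). Without both knockout replicate 3 arrays it was 0.37 and missed the threshold (adjusted p = 0.122). It also missed it when any 1 array of wild type VILI was left out, or knockout VILI replicate 2 or 3, knockout SB replicate 1 or 3, or wild type SB replicate 2 or 3.

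Sesn1 (sestrin 1) restrains the growth kinase mTORC1 and limits oxidative stress. It was at 12.27, 11.82 and 12.38 in knockout VILI lungs and 12.33, 12.20 and 12.51 in wild type VILI lungs, against 11.90, 11.68 and 11.65 in knockout SB lungs and 11.83, 11.73 and 11.37 in wild type SB lungs. The wild type groups were separate, and in knockout 1 SB array lay above the lowest VILI array. The averaged change was 0.56 (SE 0.11, adjusted p = 0.00899). Its 4 kept probe sets changed by 0.41 to 0.59 on average.

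Sesn2, the related sestrin, did not rise with it. Its mean was 7.17 ± 0.58 in knockout VILI lungs and 7.05 ± 0.05 in wild type VILI lungs, against 7.37 ± 0.22 in knockout SB lungs and 7.62 ± 0.40 in wild type SB lungs (SD, n = 3 each), and the averaged change was -0.39 (SE 0.20, adjusted p = 0.190).

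**Figure D1:**
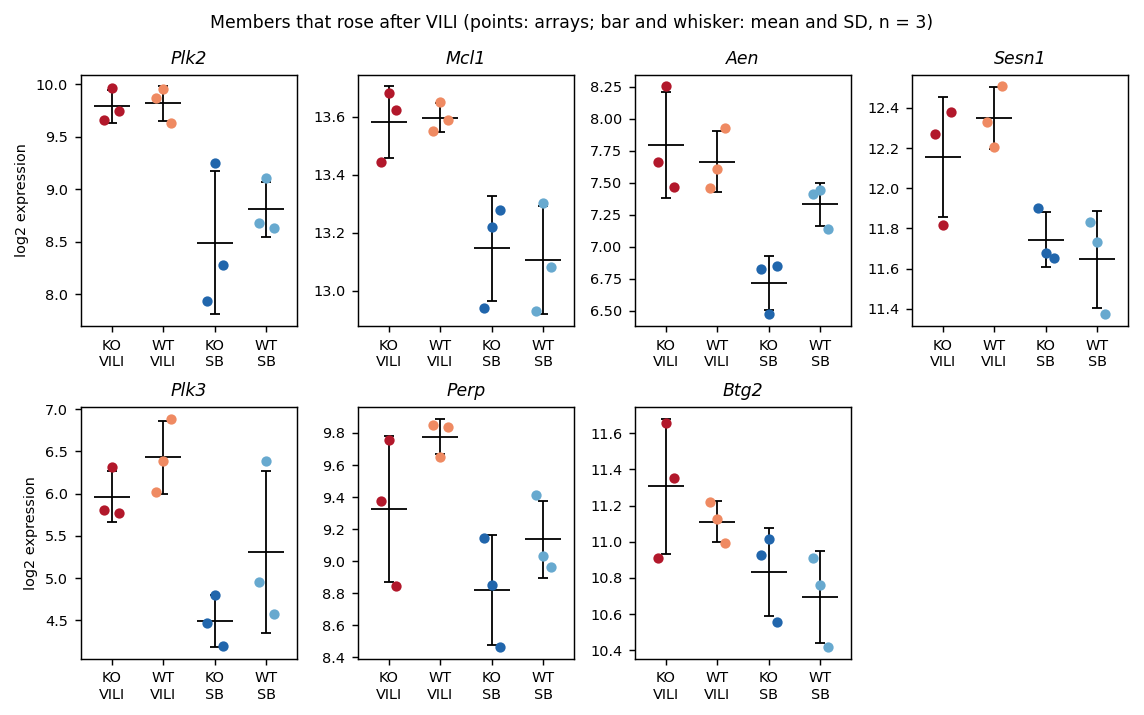
The log2 expression of the 7 members that passed the threshold for VILI against SB averaged over genotypes, by group, with 1 point per array and the mean and SD (n = 3) as bar and whisker. Plk2 shows the 6 VILI arrays between 9.63 and 9.97 and the SB arrays spread between 7.94 and 9.25, and Mcl1 shows every VILI array above every SB array.

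Cdkn1a encodes p21, the cyclin-dependent kinase inhibitor through which p53 halts the cell cycle. It was at 11.52, 11.69 and 11.34 in knockout VILI lungs and 12.48, 12.31 and 12.63 in wild type VILI lungs, against 10.38, 12.16 and 10.83 in knockout SB lungs and 11.72, 12.60 and 10.32 in wild type SB lungs. The VILI groups were tight and the SB groups wide, with SB replicate 2 of each genotype reaching the levels of its VILI group or passing them. The averaged change of 0.66 (SE 0.37) missed the threshold (adjusted p = 0.231), and its 95% interval ran from -0.14 to 1.46. SB replicate 2 also had the highest value of its group for Plk2, Plk3 and Mdm2 in both genotypes, a pattern picked out after the values were seen.

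Phlda3, a p53 target that competes with Akt for membrane lipids and so restrains it, was at 7.62, 7.71 and 7.24 in knockout VILI lungs and 8.14, 8.38 and 8.12 in wild type VILI lungs, against 7.87, 7.94 and 8.37 in knockout SB lungs and 8.15, 8.65 and 8.49 in wild type SB lungs. All knockout VILI arrays lay below all arrays of the other 3 groups. The averaged VILI change was -0.38 (SE 0.13, adjusted p = 0.0704) and missed the threshold. It was -0.23 without both knockout replicate 3 arrays (adjusted p = 0.199).

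The remaining growth arrest and signalling targets did not pass it either. Ccng1, the cyclin that recruits a phosphatase to Mdm2, had an averaged change of -0.03 (95% interval -0.24 to 0.18), and Zmat3, an RNA-binding zinc finger protein, one of 0.07 (-0.21 to 0.35). Trp53inp1, a stress-induced nuclear cofactor of p53, was at 12.6 to 13.6 over all arrays, with a change of 0.29 (SE 0.15, adjusted p = 0.210) at the probe set that stands for it. Its other kept probe set changed by 0.77 (SE 0.19, adjusted p = 0.0219 over all kept probe sets), so the probe sets of Trp53inp1 disagree.

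Mdm2, the ubiquitin ligase that destroys p53 and is itself a p53 target, was at 9.10, 9.33 and 8.98 in knockout VILI lungs and 9.16, 9.13 and 9.14 in wild type VILI lungs, against 8.92, 8.99 and 8.67 in knockout SB lungs and 8.95, 8.98 and 8.64 in wild type SB lungs. The wild type groups did not overlap, and the knockout groups overlapped by 1 array. Its change was alike in size in the genotypes, 0.28 in knockout and 0.29 in wild type. The average of 0.28 (SE 0.10, adjusted p = 0.0627) missed the threshold, which it passed with array weights and with the replicate block.

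Mdm4, which binds p53 and blocks its activity, was at 9.77, 9.73 and 10.16 in knockout VILI lungs and 9.52, 9.61 and 9.44 in wild type VILI lungs, against 10.09, 9.74 and 10.05 in knockout SB lungs and 9.80, 9.27 and 9.67 in wild type SB lungs. The averaged VILI change was -0.07 (95% interval -0.32 to 0.19), with -0.08 in knockout and -0.06 in wild type. Its other kept probe set changed by 0.10 on average, 0.42 in knockout and -0.22 in wild type, so the probe sets of Mdm4 disagree in knockout. Neither was called.

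Among the death targets, Aen and Perp rose. Aen is a nuclease that p53 induces and that takes part in DNA fragmentation during apoptosis. It was at 7.67, 8.26 and 7.46 in knockout VILI lungs and 7.46, 7.61 and 7.93 in wild type VILI lungs, against 6.82, 6.47 and 6.85 in knockout SB lungs and 7.41, 7.44 and 7.14 in wild type SB lungs. VILI and SB arrays were separate in both genotypes, and the knockout SB arrays lay below all others. The averaged change was 0.71 (SE 0.15, adjusted p = 0.0108).

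Perp is a membrane protein of epithelial junctions as well as a p53 apoptosis effector. Its values were 9.38, 9.76 and 8.85 in knockout VILI lungs and 9.85, 9.65 and 9.84 in wild type VILI lungs, against 9.15, 8.85 and 8.46 in knockout SB lungs and 9.41, 9.03 and 8.97 in wild type SB lungs. The wild type groups were separate and the knockout groups overlapped. The averaged change was 0.57 (SE 0.16, adjusted p = 0.0341). It missed the threshold, with adjusted p up to 0.0795, when any 1 array of wild type VILI was left out, or knockout VILI replicate 1 or 2, knockout SB replicate 2 or 3, or wild type SB replicate 2 or 3.

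The other death targets did not pass the threshold. Bbc3 was nearly flat, between 5.96 and 6.13 over all 12 arrays, with a change of -0.03 (95% interval -0.21 to 0.16). This rests on 1 kept probe set, and without detection calls a flat gene and an unresponsive probe set cannot be told apart. Pmaip1 changed by 0.12 (SE 0.19), Bak1 by -0.26 (SE 0.23) and Apaf1, the scaffold that activates caspase 9 once cytochrome c is released, by 0.23 (SE 0.18), with adjusted p-values of 0.701, 0.448 and 0.398. The other kept Apaf1 probe set changed by 0.64 and was not called either. Without both knockout replicate 3 arrays the Bak1 change was -0.09 (adjusted p = 0.729). The death receptor Fas had a change of 0.50 (SE 0.20, adjusted p = 0.105), with group means of 10.63 ± 0.40 in knockout VILI lungs and 10.88 ± 0.24 in wild type VILI lungs, against 10.38 ± 0.39 in knockout SB lungs and 10.14 ± 0.53 in wild type SB lungs (SD, n = 3 each).

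Ei24, a p53-induced protein of the endoplasmic reticulum, was at 10.41, 10.09 and 10.04 in knockout VILI lungs and 10.44, 10.35 and 10.47 in wild type VILI lungs, against 10.38, 10.39 and 10.17 in knockout SB lungs and 10.58, 10.68 and 10.50 in wild type SB lungs. The wild type VILI arrays lay just below the wild type SB arrays, and the averaged change was -0.15 (SE 0.08, adjusted p = 0.220).

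None of the 6 DNA repair members passed the threshold for VILI. Xpc, which recognises distorted DNA in nucleotide excision repair, was at 8.79, 8.71 and 8.42 in knockout VILI lungs and 8.72, 8.59 and 8.51 in wild type VILI lungs, against 8.78, 8.70 and 8.70 in knockout SB lungs and 9.02, 9.09 and 8.86 in wild type SB lungs. The wild type SB arrays lay above all others, and the averaged change was -0.23 (SE 0.09, adjusted p = 0.0883). Rev3l, the catalytic subunit of a translesion polymerase, had a change of -0.25 (SE 0.10, adjusted p = 0.0954). The ribonucleotide reductase subunit Rrm2b, the damage sensor Ddb2, the polymerase Polk and the nuclease Ercc5 had averaged changes of -0.06, -0.07, 0.04 and 0.06.

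Mcl1, a short-lived Bcl2 relative that keeps neutrophils and other cells alive, was at 13.44, 13.68 and 13.62 in knockout VILI lungs and 13.55, 13.65 and 13.59 in wild type VILI lungs, against 12.94, 13.22 and 13.28 in knockout SB lungs and 12.93, 13.30 and 13.08 in wild type SB lungs. VILI and SB arrays were separate in both genotypes. The averaged change was 0.46 (SE 0.08, adjusted p = 0.00401), a 1.38-fold increase, and all 6 of its kept probe sets passed the threshold with changes of 0.45 to 0.72.

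The other survival genes did not pass it. Bcl2 was at 9.48, 9.16 and 9.90 in knockout VILI lungs and 9.36, 9.43 and 9.43 in wild type VILI lungs, against 9.41, 9.61 and 9.40 in knockout SB lungs and 9.53, 9.36 and 9.34 in wild type SB lungs, with overlap throughout and a change of 0.02 (95% interval -0.23 to 0.27). Its other 3 kept probe sets had changes of 0.24, 0.83 and 0.79, none past the threshold (adjusted p = 0.178, 0.162 and 0.0795), so the flat value belongs to the probe set that stands for the gene.

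Bcl2l1, which encodes Bcl-xL, was at 10.94, 10.56 and 10.43 in knockout VILI lungs and 11.08, 11.12 and 11.21 in wild type VILI lungs, against 9.89, 10.04 and 10.60 in knockout SB lungs and 11.16, 11.17 and 10.39 in wild type SB lungs. The VILI and SB arrays overlapped in both genotypes, and the change was 0.35 (SE 0.16, adjusted p = 0.162). Without both knockout replicate 3 arrays it was 0.51 (adjusted p = 0.0586), and 0.78 within knockout (adjusted p = 0.129). Bcl2l11 (Bim), which promotes death, changed by 0.11 (SE 0.18, adjusted p = 0.692). That is the lowest of its 5 kept probe sets, which changed by 0.11 to 0.70 on average. They spanned 0.05 to 1.52 in wild type and -0.13 to 0.40 in knockout, and 0 of the 5 were called.

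Markers of other cells moved with VILI. Of 15 neutrophil markers 13 were tested, and 11 of them rose in the averaged comparison, with a median change of 3.10. Their mean level was 8.76 to 10.20 in knockout VILI lungs and 8.64 to 9.37 in wild type VILI lungs, against 6.28 to 6.89 in knockout SB lungs and 5.91 to 6.33 in wild type SB lungs, and their part in the rises of the members was not tested. Summed over the 13, the log2 level was 14.80 to 15.58 in knockout VILI lungs and 14.60 to 15.28 in wild type VILI lungs, against 12.33 to 12.93 in knockout SB lungs and 11.80 to 12.09 in wild type SB lungs. At most 1 of the 13 lay below the array median on a VILI array, against 3 or 4 on each SB array. Of the 10 lung cell markers 4 fell, among them Foxj1 of ciliated cells by 1.16 and Pecam1 of endothelium by 0.31, and none rose. Of 9 macrophage and monocyte markers 1 rose, Ccr2 (1.35), and no tested marker of B cells (6), T and natural killer cells (5) or heart muscle (8), and no cell division gene (6), was called. Over all genes tested, 8.42% rose and 9.39% fell in the same comparison.

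The VILI response within each genotype gave fewer calls. In knockout lungs 2 of 30 members rose, Aen by 1.08 (SE 0.21, adjusted p = 0.0205, 2.12-fold) and Plk2 by 1.30 (SE 0.28, adjusted p = 0.0249, 2.47-fold), and none fell. That is 6.67% of members, where 4.47% of all genes were called, 2.76% higher and 1.7% lower. In wild type lungs 2 of 30 also rose, Sesn1 by 0.70 (SE 0.16, adjusted p = 0.0465, 1.63-fold) and Mcl1 by 0.49 (SE 0.11, adjusted p = 0.0476, 1.41-fold), and none fell. There 2.64% of all genes were called, 1.36% higher and 1.28% lower. At an unadjusted p under 0.05, 7 of 30 members passed in knockout (22.2% of all genes did) and 7 of 30 in wild type (21.2% of genes).

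Although the called genes differ between the genotypes, the members' responses were not shown to differ. The interaction (knockout response less wild type response) was called for 0 of 30 members and for 0 of all 10996 genes (0% called by limma, and at an unadjusted p under 0.05 1 of 30 members and 288 genes, 2.62%). Mcl1 changed by 0.44 in knockout lungs (adjusted p = 0.0542) and Plk2 by 1.01 in wild type lungs (adjusted p = 0.0753), each just outside the threshold. Sesn1 changed by 0.41 in knockout lungs (adjusted p = 0.164). Its 4 kept probe sets spanned -0.37 to 0.45 in knockout and 0.49 to 1.21 in wild type, so they disagree in knockout. Their interactions spanned -1.58 to -0.15, and 0 of the 4 were called. The member with the smallest interaction p was Aen, with 1.08 in knockout and 0.33 in wild type, an interaction of 0.75 (SE 0.30, unadjusted p = 0.0308, adjusted p = 1.0). Without both knockout replicate 3 arrays the Aen interaction was 0.98 (adjusted p = 0.697).

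Counts within a genotype rested on single arrays. In knockout lungs 0 members were called without knockout VILI replicate 2 or without knockout SB replicate 1, and 1 without knockout VILI replicate 3, knockout SB replicate 2 or knockout SB replicate 3; 4 were called without wild type SB replicate 2. Without both knockout replicate 3 arrays Aen alone was called, and Plk2 changed by 1.22 (adjusted p = 0.116). In wild type lungs 0 were called without any 1 of the wild type VILI arrays or without wild type SB replicate 3, and 1 without wild type SB replicate 1, knockout VILI replicate 2 or 3, or knockout SB replicate 1 or 2.

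Counted by arrays that do not overlap, 5 members in knockout lungs had all VILI arrays above all SB arrays (Plk2, Plk3, Trp53inp1, Aen and Mcl1; 12.9% of all genes did) and 1 had them below (Phlda3; 10.6% of genes). In wild type lungs 7 had them above (Mdm2, Sesn1, Plk2, Btg2, Perp, Aen and Mcl1; 11.6% of genes) and 4 below (Sesn2, Ei24, Xpc and Rev3l; 20% of genes). The plot of both responses by role shows Plk2, Aen and Mcl1, the members separate in both genotypes, to the right of 0 in each.

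**Figure D2:**
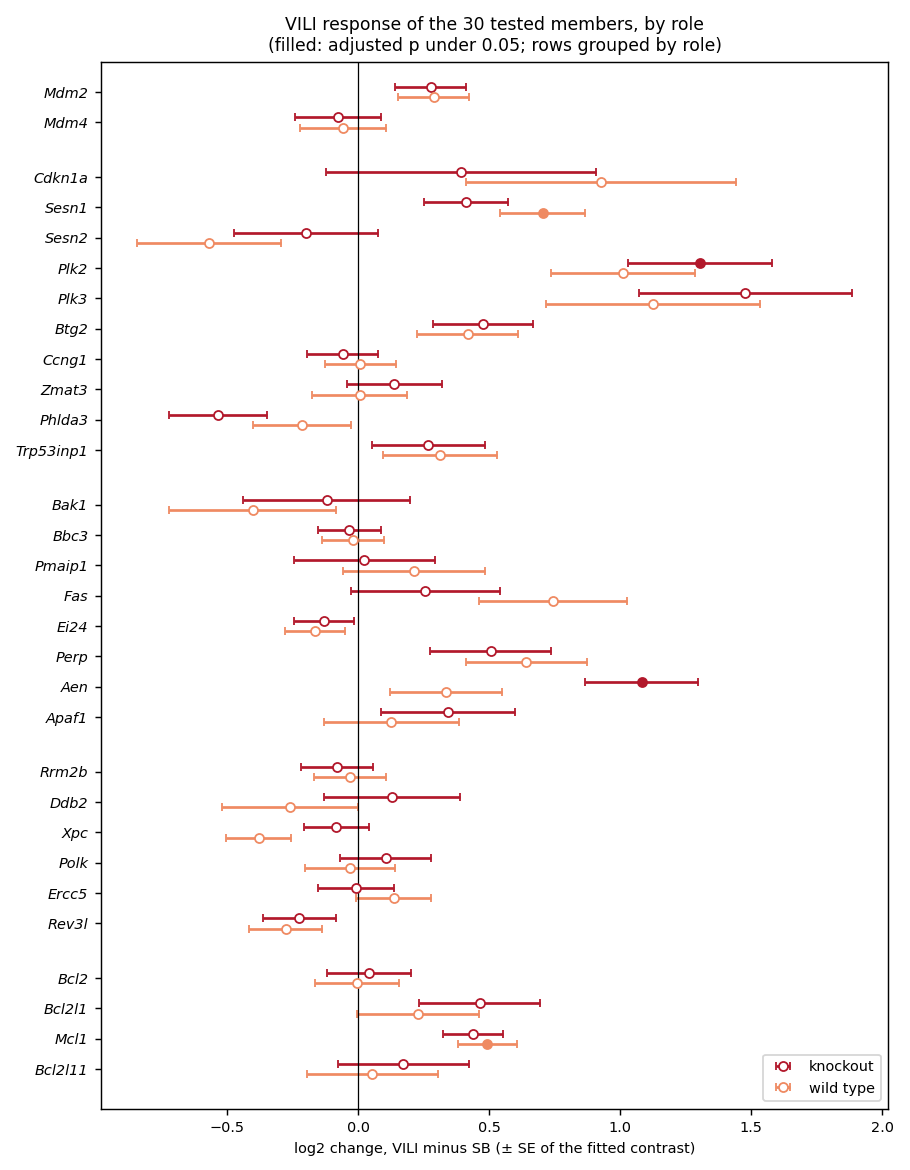
The VILI response of the 30 tested members, as the log2 change VILI minus SB with its SE, in knockout (dark red) and wild type (orange), in groups by role from p53 inhibitors at the top to Bcl2 relatives at the bottom; filled points passed the threshold. The changes of Plk2 and Plk3 lie between 1.01 and 1.48, and the DNA repair genes lie between -0.38 and 0.13.

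Over the 76 probe sets of the members, 62 passed the filter, and 15 of those were called for the averaged VILI response when each was tested on its own (13.8% of all 19658 kept probe sets were). The 15 were 6 of 6 for Mcl1, 2 of 4 for Sesn1, 2 of 2 for Aen, 1 of 1 each for Plk2, Plk3 and Perp, 1 of 2 for Btg2 and 1 of 2 for Trp53inp1. For Btg2 the called probe set (0.54, adjusted p = 0.0365) was not the one that stands for the gene (0.45, adjusted p = 0.0508 in this larger test). The second Aen probe set rose by 0.63. Within a genotype 4 of the 62 were called in knockout (2.9% of all kept probe sets) and 3 in wild type (1.54%). Some of these probe sets carry the suffixes by which Affymetrix marks probes that can match more than 1 transcript, among them the one that stands for Sesn1 and 3 of Mcl1, so related transcripts may add to them.

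**Figure D3:**
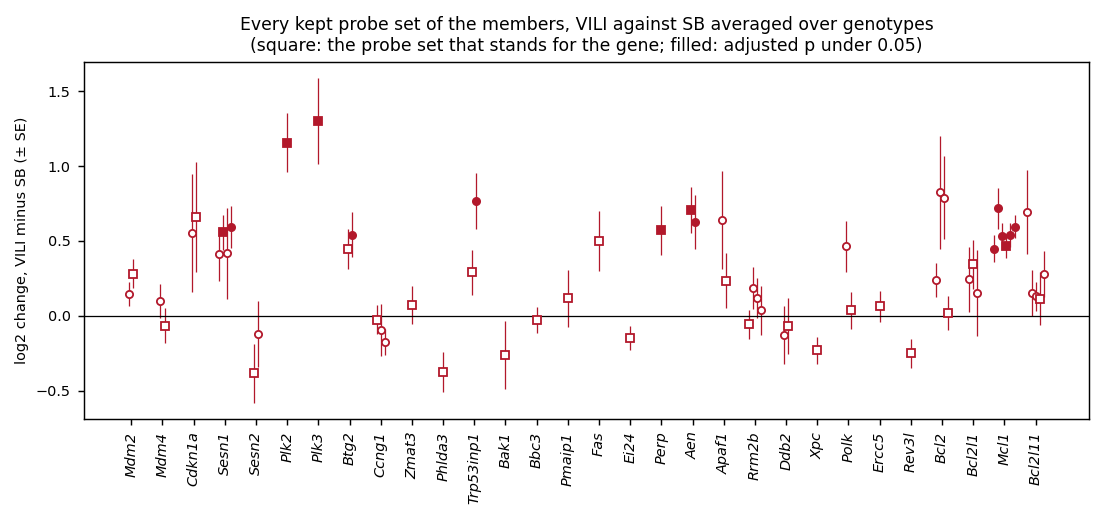
The averaged VILI response (log2 change VILI minus SB, with its SE) of each of the 62 kept probe sets, by member; squares stand for the gene, filled symbols passed the threshold over all kept probe sets. The 6 Mcl1 probe sets lie together between 0.45 and 0.72, while those of Bcl2 spread between 0.02 and 0.83.

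Loss of Gadd45a called no member in either treatment. In knockout against wild type after VILI 0 of 30 were called by limma, where 0.1% of all genes were, and at an unadjusted p under 0.05 the shares were 2 of 30 members and 6.88% of genes. Under SB 0 of 30 were called by limma, where 0.109% of all genes were (unadjusted, 4 of 30 members and 10.1% of genes). Averaged over treatments 0 of 30 were called by limma, where 0.455% of all genes were (unadjusted, 6 of 30 members and 14.6% of genes). Some of the uncalled members are therefore described by their differences, with intervals for Phlda3 and Cdkn1a.

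Phlda3 had the smallest p for genotype. Its averaged knockout minus wild type difference was -0.53 (SE 0.13, unadjusted p = 0.00185, adjusted p = 0.134), with -0.69 after VILI (95% interval -1.10 to -0.28) and -0.37 under SB (-0.78 to 0.04). The knockout VILI arrays lay below the wild type VILI arrays, and the SB arrays overlapped. Without both knockout replicate 3 arrays the average was -0.54 (adjusted p = 0.138).

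Bcl2l1 had an averaged difference of -0.61 (SE 0.16, adjusted p = 0.166), with -0.49 after VILI and -0.73 under SB, and -0.66 on average without both knockout replicate 3 arrays (adjusted p = 0.164). After VILI the knockout arrays lay below the wild type arrays, and under SB 1 wild type array, replicate 3, lay among the knockout arrays. The 3 kept probe sets of Bcl2l1 differed by -0.61 to -0.15 on average and by -0.54 to -0.44 after VILI. Under SB they spanned -0.73 to 0.13, so the probe sets of Bcl2l1 disagree there. Mdm4 differed the other way, by 0.37 on average (SE 0.12, adjusted p = 0.191), and by 0.54 at its other kept probe set. At the probe set that stands for it, all knockout VILI arrays lay above the wild type VILI arrays. There the average was 0.28 without both knockout replicate 3 arrays (adjusted p = 0.352). Ei24 differed by -0.26 (SE 0.08, adjusted p = 0.192), and by -0.19 without those arrays (adjusted p = 0.352). Plk3 and Perp, also among the 6 members with an unadjusted p under 0.05 on average, differed by -0.64 and -0.38. Without those arrays they differed by -0.52 and -0.17.

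The p21 gene Cdkn1a was lower in knockout on all arrays after VILI, by 0.96 on the log2 scale, but with a wide interval (-2.09 to 0.18, adjusted p = 0.752), since the fit shares 1 spread over the 4 groups and the SB arrays of Cdkn1a were spread. Its own SDs were 0.18 in knockout VILI and 0.16 in wild type VILI, against 0.93 in knockout SB and 1.15 in wild type SB. Without knockout replicate 3 the difference after VILI was -0.87. Under SB the difference was -0.42 (interval -1.55 to 0.71), and -0.27 without those arrays.

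Aen was lower in knockout under SB by 0.62 (SE 0.21, adjusted p = 0.378) without overlap, but its second probe set differed by -0.01 there, so the probe sets disagree. After VILI the Aen difference was 0.13 (SE 0.21). Arrays did not overlap after VILI for 1 member higher in knockout (Mdm4; 6.64% of all genes) and 3 lower (Cdkn1a, Phlda3 and Bcl2l1; 8.13% of genes), and under SB for 0 higher (3.76% of genes) and 3 lower (Ei24, Aen and Xpc; 11.5% of genes).

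**Figure D4:**
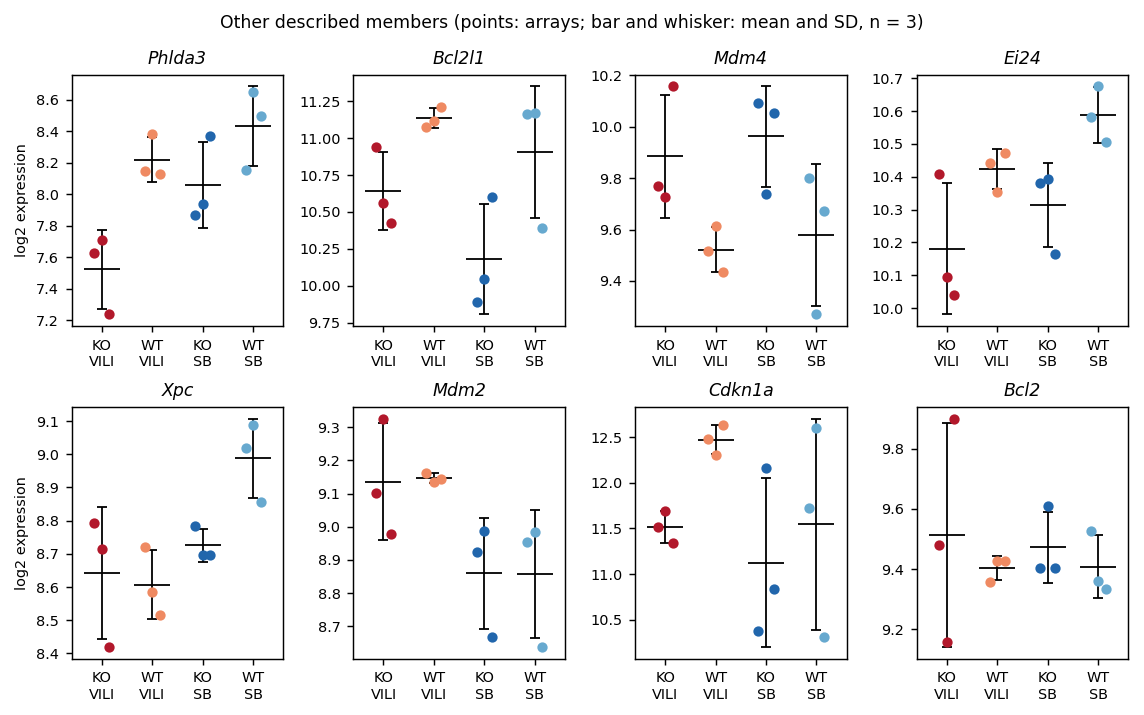
The log2 expression of 8 members that passed no threshold, by group, with 1 point per array and the mean and SD (n = 3) as bar and whisker. Cdkn1a shows tight VILI groups and SB groups that span 10.38 to 12.16 in knockout and 10.32 to 12.60 in wild type, and Phlda3 shows the knockout VILI arrays below all others.

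Genes around the members were read from further lists. Of 28 other p53 targets 5 rose and 1 fell for VILI averaged over genotypes, with a median change of 0.18. These are 21.4% of the list, near the 17.8% called over all genes tested (8.42% higher and 9.39% lower). Sfn (14-3-3 sigma), which holds cells before mitosis and is made by epithelium, rose by 3.11 (SE 0.32, adjusted p = 0.000354), by 3.43 in knockout and by 2.78 in wild type. Thbs1 (thrombospondin 1) rose by 1.76, Gadd45g by 0.79 and Ier3 by 0.78, and the fifth was Btg1, a relative of Btg2 (0.60). The gene that fell was Ephx1, an epoxide hydrolase (-0.33, adjusted p = 0.0479).

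Of 24 kinases, cofactors and other regulators of p53, 3 rose and 3 fell, 25% of the list beside 17.8% of all genes. The acetyltransferase Kat5 (0.63), and the ubiquitin ligases Trim24 (0.63) and Rchy1 (0.29), rose. Trp53bp2 (-0.56) and Trp53bp1 (-0.48), which bind p53, and the methyltransferase Setd7 (-0.33) fell. The median was 0.00.

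Of 24 caspases, adaptors and caspase inhibitors, 2 rose and 4 fell, with a median of -0.01. That is 25% of the list, beside 17.8% of all genes. Those that rose were the inflammatory caspase Casp4 (0.98, adjusted p = 0.0077) and the inhibitor Birc3 (0.68, adjusted p = 0.00479), a target of NF-kB. Within knockout both were called, Casp4 at 1.56 (adjusted p = 0.0142) and Birc3 at 0.91 (adjusted p = 0.0183). Neither was called in wild type, where the Casp4 mean was 6.30 with VILI and 5.89 under SB. Those that fell were the death ligand Tnfsf10 (-1.05), Casp12 (-0.46), the mitochondrial pathway's initiator Casp9 (-0.38) and the executioner Casp6 (-0.36). Casp12 was also called within wild type (-0.61, adjusted p = 0.0479). Of 9 other Bcl2 family genes 0 were called, and of 19 other repair genes 1 (5.26%), Ddb1, fell (-0.26).

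In the genotype comparisons Gadd45a itself was the only gene of these 5 lists that was called, at -4.20 after VILI, -3.74 under SB and -3.97 on average.

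**Figure D5:**
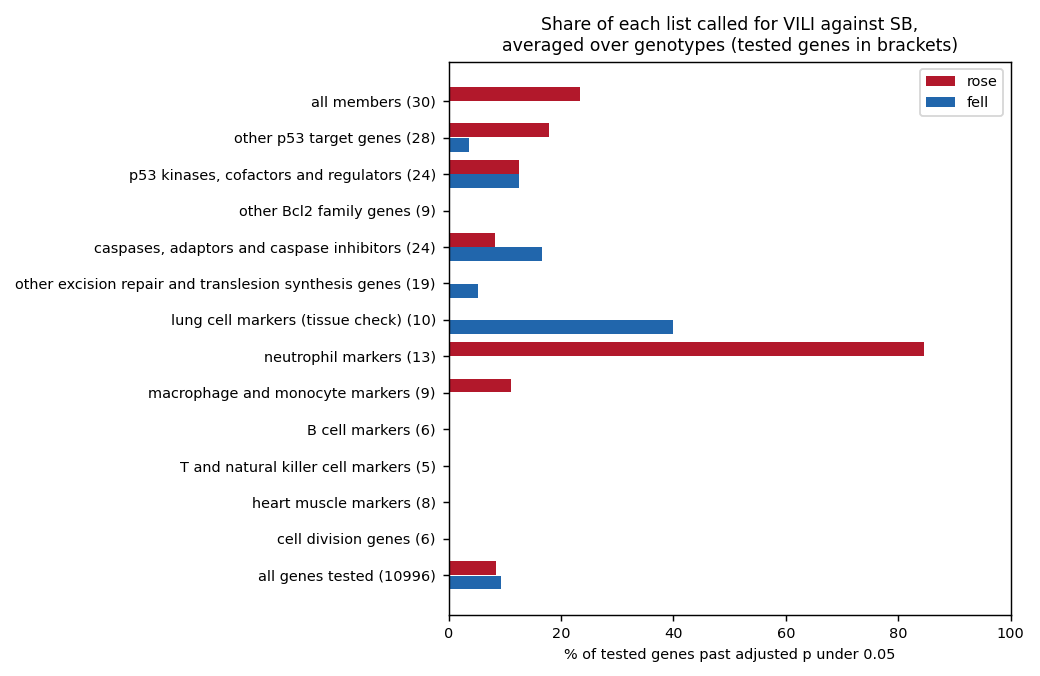
The share of tested genes that rose (red) or fell (blue) for VILI against SB averaged over genotypes, in percent, for the members, the other pathway lists, the marker lists and all 10996 genes, with the number tested in brackets. The members stand at 23.3% risen and none fallen, beside 8.42% and 9.39% of all genes, and the neutrophil markers at 84.6% risen.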

How the data were processed

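Lung RNA of 12 mice was measured on 12 arrays. The deposited values were log2 expression for 45101 probe sets per array, normalized by the authors; per the submitters' processing notes MAS5 and GCRMA were used, with no role, order or version given, and the values were used as deposited. Dropping 64 control probe sets left 45037, of which 23082 exceeded the median of the array on 3 or more of the 12 arrays and were kept. Names came from the platform annotation, and symbols were compared with RefSeq genes of GRCm38.p6 by gene identifier (34741 probe sets matched, 0 symbols changed). Of the probe sets, 34945 carried 1 symbol, 932 several and 9160 none, and only the first were named. The kept probe set of highest mean stood for a gene, giving 10996 genes.

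With files read by the R package data.table, version 1.17.8, limma 3.58.1 in R 4.3.3 fitted 1 mean per group over all 12 arrays, with empirical Bayes moderation and a mean-variance trend (8 residual and 3.36 prior degrees of freedom), and was tested on simulated data. The 7 contrasts were two-sided, adjusted over all genes, threshold 0.05. The VILI contrasts share SB arrays with the genotype contrasts. Members described array by array were those past the threshold in any contrast, the next by p, and Mdm2, Cdkn1a, Bcl2 and Mcl1 whatever their p; Trp53 and Bax were also named in the rule but not analysed here. From each other list up to 4 called genes per contrast were named, and all where few were called. The members, lists and rules were chosen with earlier results of these data known.

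Groups share replicate numbers 1 to 3. Same-numbered arrays correlated in their deviations at -0.16 to 0.53 (10 of 18 pairs over 0.1), and different numbers at -0.45 to 0.25. Only knockout SB and wild type SB had all 3 pairs over 0.1 (0.23, 0.53 and 0.32), and the numbers were taken to pair those groups alone. Knockout SB with knockout VILI gave 0.05, 0.21 and 0.43. For 8 of the 12 arrays the closest array of another group had the same number. Whether other groups are paired too was not settled, and the main fit used no pairing. Alternatives were other scalings, filters and probe set rules, no trend, array weights, a replicate block, and fewer arrays. RefSeq supplied promoters for 24 members.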

Additional observations from a re-analysis of the deposited data

How the results depend on the processing

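Plk2, Mcl1, Sesn1, Aen and Plk3 stayed past the threshold for the averaged VILI response in all 22 alternatives (highest adjusted p 0.0155, 0.0148, 0.0454, 0.0310 and 0.0366), whereas Btg2 missed it in 13 (up to 0.122) and Perp in 11 (up to 0.0795). The averaged count of 7 became 11 with array weights and 9 with the replicate block, which added Fas and Mdm2, and lay between 5 and 9 when 1 array was left out. The knockout count of 2 became 1 without the filter on low values, 4 with array weights, 4 with the replicate block, 1 without both knockout replicate 3 arrays and 0 with only the 6 arrays compared, and lay between 0 and 4 when 1 array was left out. The wild type count of 2 became 0 with median centring, 1 with quantile normalization, 0 without the filter, 1 with the mean of kept probe sets, 1 with each probe set on its own, 0 without the trend, 10 with array weights and 4 with the replicate block, and lay between 0 and 2 when 1 array was left out. The averaged genotype count of 0 became 1, Phlda3, with array weights; it stayed at 0 when 1 array was left out, as did the counts for knockout against wild type after VILI, under SB and for the interaction. With the replicate block fitted to the 6 SB arrays alone, an alternative chosen after seeing the data, 0 members were called and 13 genes in all, against 8 on the same arrays without the block. None of the 36 results with an unadjusted p under 0.05 among the members described array by array reversed in direction. Of all 210 member values, 96 changed sign in at least 1 alternative. Of these 96, 0 had an unadjusted p under 0.05 in limma or were called with the other sign. Over all genes, array weights called 3174 for the averaged VILI response (1958 without them), 872 in knockout (491), 2204 in wild type (290), 44 for genotype after VILI (11) and 105 for averaged genotype (50). Without the filter 306 were called in knockout, 112 in wild type and 23 for averaged genotype; without both knockout replicate 3 arrays 110, 653 and 28; with only the 6 arrays compared 11 in knockout, 475 in wild type and 8 for genotype under SB (12). The replicate block called 442 in wild type. With 1 array left out the averaged VILI response called 1128 to 2084 genes, knockout 69 to 713, wild type 19 to 487, genotype after VILI 8 to 42, genotype under SB 9 to 18 and averaged genotype 22 to 161. The split of all genes moved with scaling: the averaged VILI response had 926 higher and 1032 lower, against 664 and 1152 with centring and 808 and 1384 with quantile normalization; in knockout 304 and 187 became 200 and 185, or 271 and 257, and in wild type 149 and 141 became 106 and 134, or 138 and 198. The causes of these shifts were not tested. With 3 arrays per group and no detection calls, values near the array median are weakly measured.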
